A study of Mus musculus with 9 samples.

Results

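The genes described here handle iron in the mouse brain: the ferritin subunits Fth1 and Ftl1, the carrier Trf and its receptor Tfrc, the transporters Slc40a1 and Slc11a2, the reductase Steap3, the sensors Ireb2 and Aco1, and the heme-degrading enzyme Hmox1. They were chosen by name, and all 10 were found among the 23798 genes of the table, through 13 of its 33299 RefSeq transcripts. The series compared 3 groups of 3 samples: mice of the genotype TG given NM-101, TG mice given placebo, and wild-type (WT) mice given placebo. The labels give the tissue as brain and the cell type as oligodendrocyte, the myelin-forming cell. The title of the series is about the effect of neuronal alpha-synuclein on oligodendrocytes. Neither the transgene nor its promoter, the nature, dose and timing of NM-101, or the age of the mice is given in the sources used here. Nothing states that replicates are different mice, and a p-value here covers only the scatter of the 3 samples in a group, which could be technical.

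Iron enters most cells as transferrin bound to the transferrin receptor, is reduced in the endosome, and leaves it through a divalent metal transporter. Ferritin, a shell of heavy and light subunits, stores what is not used, ferroportin is the known exporter, and heme oxygenase frees iron from heme. Oligodendrocytes are known as the iron-rich cells of the brain and as a main site of transferrin synthesis there. A pair of RNA-binding proteins, encoded by Aco1 and Ireb2, match storage and uptake to the iron supply by gripping a short RNA hairpin, the iron-responsive element, before the coding part of ferritin mRNA or after that of Tfrc.

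Because that hairpin is what ties several members together at the RNA level, its sequences are shown for the genes in which they could be printed. A C, 5 bases, the loop CAGTGN and 5 further bases that pair with the first 5 (G with T allowed) were searched on the transcript strand of 30084 GENCODE M21 transcripts matched to the table. The pattern was present in 1.14% of them and in transcripts of 4 of the 10 members. Fth1, Ftl1 and Slc40a1 each held 1 match in the 5′ UTR, and Tfrc held 4 in the 3′ UTR. The capitals mark the loop in each 30-base stretch, written 5′ to 3′ from GENCODE M21.
Fth1: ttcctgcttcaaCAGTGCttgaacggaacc
Ftl1: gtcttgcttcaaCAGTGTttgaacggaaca
Tfrc 1: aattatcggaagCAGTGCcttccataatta
Tfrc 2: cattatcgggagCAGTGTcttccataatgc
Tfrc 3: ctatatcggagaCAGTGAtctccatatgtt
Tfrc 4: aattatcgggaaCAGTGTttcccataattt
In GRCm38 the Fth1 element lies at chr19:9982732-9982761 on the plus strand and the Ftl1 element at chr7:45459778-45459807 on the minus strand. The Tfrc elements lie on the plus strand of chromosome 16, Tfrc 1 at chr16:32631219-32631248 and Tfrc 4 at chr16:32631710-32631739. A match is a run of letters and not a measured site, and its absence from the transcripts of the other members says only that these letters are not there.

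In GRCm38.p6, Fth1 lies on chromosome 19 from 9980600 to 9985111, Ftl1 on chromosome 7 from 45457944 to 45459886, and Hmox1 on chromosome 8 from 75093618 to 75100593. Trf lies on chromosome 9 from 103208876 to 103230286 and Tfrc on chromosome 16 from 32608896 to 32632794. Slc40a1 spans 45908070 to 45926532 and Steap3 120226414 to 120271081 on chromosome 1, and Slc11a2 spans 100387898 to 100424209 on chromosome 15. Ireb2 lies on chromosome 9 from 54862658 to 54912534 and Aco1 on chromosome 4 from 40143265 to 40199009.

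The WT columns of the table hold counts, with totals of 10612290, 14041951 and 11774367, and the TG columns hold values read here as log2(FPKM + 1), where FPKM is a fragment rate scaled to transcript length and library size. Levels below are on that scale, and WT counts were rebuilt as log2(RPKM + 1), the like quantity from reads, only for description. QuantSeq kits, which the labels name, usually read the 3′ ends of transcripts, and where they do, division by length raises short transcripts relative to long ones. Libraries labelled as oligodendrocytes also held RNA of other cell types. Blood cell markers were near the floor, with 8 genes summing to 0.6165 to 6.98 FPKM in TG libraries. The 12 myelin markers, the defining genes of that label, were present, with a summed level between 1574 and 4942 FPKM in TG libraries, beside 2822 to 3284 FPKM for 10 neuronal markers, 1217 to 1833 FPKM for 10 astrocyte markers and 287.2 to 385.2 FPKM for 10 microglial markers. Some libraries stood apart. NM-101 libraries held 423.3 to 516.9 FPKM of 9 nuclear-retained RNAs, TG placebo replicates 2 and 3 held 1221 and 1463 FPKM, and TG placebo replicate 1 held less than any of them. The genes of that list did not all move together: of 7 tested, 2 were higher under NM-101 and 5 lower. Pantr1 was higher in every NM-101 library (6.64 to 6.91) than in any TG placebo one (5.72 to 6.39), and Rian differed by 0.007. Choroid plexus markers summed to 1045 FPKM in NM-101 replicate 2 and 4616 FPKM in TG placebo replicate 1, against 8.806 to 68.93 FPKM in the other TG libraries. On the rebuilt scale these markers summed to 3072 in WT replicate 1, against 5.22 and 21.73 in WT replicates 2 and 3. A single marker, Ttr, made up most of the sum in each of the high libraries. The other choroid plexus markers tested were also highest in TG placebo replicate 1 among the TG libraries. In libraries of mixed tissue, fewer cells of a type and less RNA per cell cannot be told apart.

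The 10 genes spanned a wide range, and the order of their group means was the same in all 3 groups. Fth1 stood at a mean of 12.58 under NM-101, 11.98 in TG placebo and 12.05 in rebuilt WT values. After it came Ftl1, Trf, Tfrc and Ireb2, each above the next in every sample of its group. Slc11a2 and Aco1 followed and overlapped in the NM-101 and WT groups but not in TG placebo. Hmox1, Slc40a1 and Steap3 were the lowest, at means between 1.36 and 2.24 in all groups. Hmox1 overlapped Slc40a1 in both placebo groups, and Slc40a1 overlapped Steap3 in TG placebo. In raw WT counts Fth1 had 38791, 49493 and 55784 reads and was the 7th, 7th and 3rd most counted gene. At the low end, Hmox1 had 46, 71 and 47 reads and Steap3 46, 67 and 59, so counting error alone is large for these genes.

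**Figure D1:**
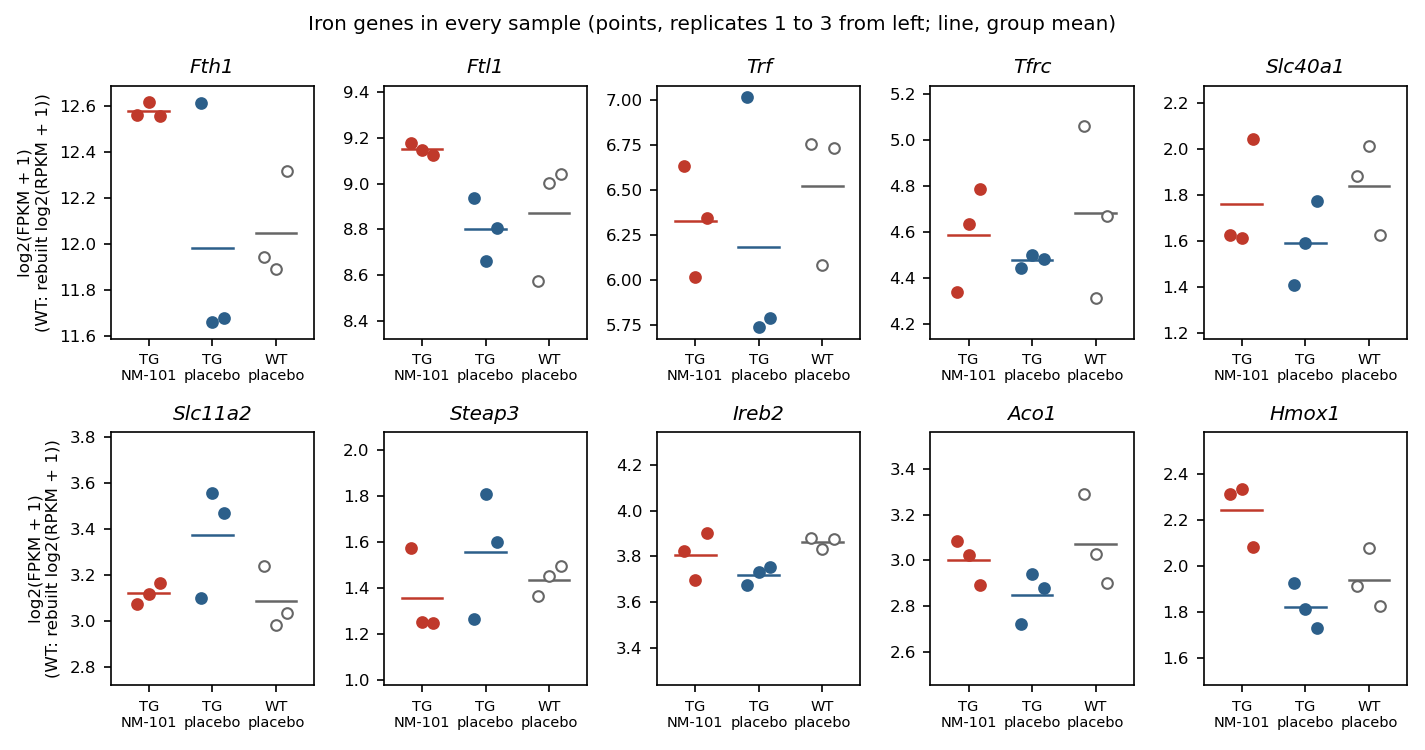
Level of each iron gene in every sample, on the log2(FPKM + 1) scale for TG samples (filled) and rebuilt log2(RPKM + 1) for WT samples (open); points are replicates 1 to 3 from left and lines are group means. Fth1 under NM-101 sits between 12.56 and 12.62, while TG placebo replicate 1 stands at 12.61 and replicates 2 and 3 at 11.66 and 11.68.

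Setting NM-101 against placebo within TG mice addresses the effect of the agent on that genotype. By limma 0 of the 10 members passed a Benjamini-Hochberg adjusted p of 0.05, a threshold that 0.134% of the 12699 genes tested passed (0.102% higher and 0.0315% lower). Unadjusted, Fth1, Ftl1 and Hmox1 had a limma p under 0.05, all 3 higher under NM-101, against 14.8% of all genes (10.7% higher and 4.17% lower). The groups did not overlap for 2 members, against 19.6% of all genes: in both, every NM-101 sample was above every TG placebo sample (13.6% of all genes), and in 0 members every one was below (5.98%). Of the 10 members 8 had a positive difference, against 55.5% of all genes, and the median log2 difference was 0.15 for the members and 0.03 for all genes. The members' median was 0.091 without NM-101 replicate 3 and 0.094 without TG placebo replicate 1.

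Fth1, the heavy subunit that oxidizes iron as it enters the ferritin shell, had the largest difference of the members over all 6 samples. It stood at 12.56, 12.62 and 12.56 in NM-101 libraries, against 12.61, 11.66 and 11.68 in TG placebo libraries. The NM-101 libraries lay close together, and TG placebo replicate 1 lay among them while the other two were about a log2 unit lower. The group means were 12.58 ± 0.03 under NM-101 and 11.98 ± 0.55 in TG placebo (SD, n = 3 each), a difference of 0.60 ± 0.25 (SE) with a limma adjusted p of 0.327. Without TG placebo replicate 1 the difference was 0.91, with a limma adjusted p of 0.00081 (range over 14 alternatives 0.00081 to 0.97), and with that replicate as the only placebo sample it was -0.035. The libraries low in Fth1 were the ones high in summed nuclear-retained RNA, and the part of that RNA in the Fth1 difference was not tested.

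Ftl1, the light subunit, which helps the iron core to form, separated the groups. It stood at 9.18, 9.15 and 9.13 in NM-101 libraries, against 8.94, 8.66 and 8.81 in TG placebo libraries. Every NM-101 value was above every placebo value, as in 13.6% of all genes tested. The difference was 0.35 ± 0.10 (SE), 1.27-fold, with a 95% interval of 0.13 to 0.56 and a limma adjusted p of 0.159. Within a sample, Fth1 exceeded Ftl1 by 3.39, 3.47 and 3.43 log2 units under NM-101, by 3.68, 3.00 and 2.87 in TG placebo, and by 3.37, 2.89 and 3.27 in WT. The balance of the subunits was tight under NM-101 and spread in both placebo groups, and NM-101 overlapped TG placebo. The NM-101 values lay above all 3 rebuilt WT values, but the lowest of them, 3.39, and the highest WT value, 3.37, were nearly equal. Processed copies of both ferritin genes exist in the mouse genome, so the assignment of shared reads is uncertain.

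Ferritin transcripts are short and abundant, and so the same contrast was read in genes of like size. Of 1255 tested genes with a transcript of 700 to 1300 bases, 69.6% had a positive NM-101 difference (median 0.12 on the log2 scale). Of the 85 among them with a mean level of at least 8, 77 were higher, the median difference was 0.38, and 65.9% had every NM-101 sample above every placebo sample. The Ftl1 difference of 0.35 was below that median, and the Fth1 difference of 0.60 was above the 90th percentile of 0.54. Both ferritin genes are themselves among the 85. Genes with transcripts over 3000 bases had a median of 0.02. These ranges were chosen after the values were seen.

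**Figure D2:**
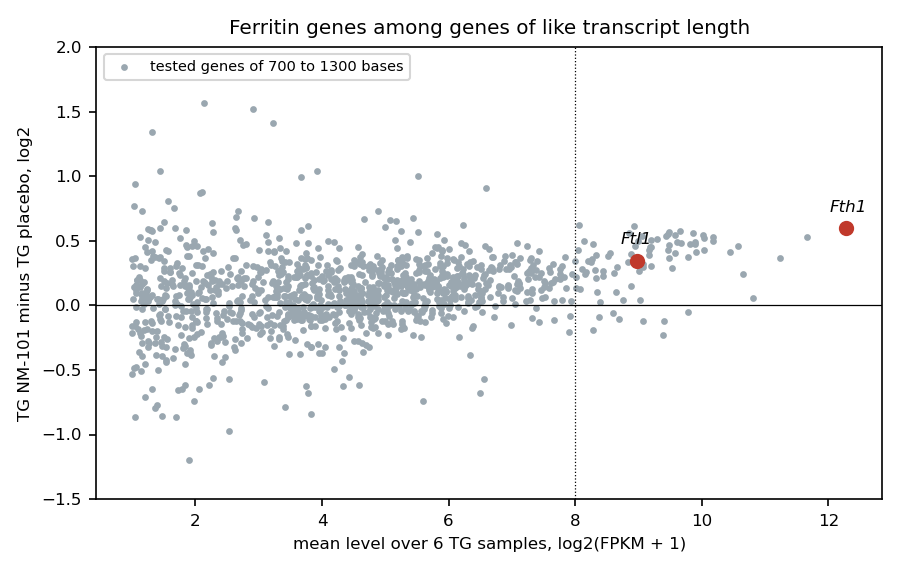
Difference between TG NM-101 and TG placebo (log2, y axis) against the mean level over 6 TG samples (log2(FPKM + 1), x axis) for 1255 tested genes with transcripts of 700 to 1300 bases, of which 1 lies outside the drawn range; the dotted line marks a level of 8. Points to its right lie mostly above 0 (77 of 85), and Ftl1 sits among them while Fth1 is at the far right.

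Hmox1, the inducible heme oxygenase, which opens heme and releases its iron, also separated the groups. It stood at 2.31, 2.34 and 2.08 in NM-101 libraries, against 1.92, 1.81 and 1.73 in TG placebo libraries. All NM-101 values were again the higher ones. The difference was 0.42 ± 0.14 (SE), 1.34-fold, with a 95% interval of 0.10 to 0.75 and a limma adjusted p of 0.242. At so low a level the pseudocount of 1 reduces the difference, which was 0.54 with a pseudocount of 0.1. Microglial markers summed to 377.5 to 385.2 FPKM under NM-101, against 287.2 to 315 FPKM in TG placebo. Of the 10 markers 9 were higher and 0 passed the limma test. Astrocyte markers summed to 1722 to 1833 FPKM under NM-101, against 1217 to 1388 FPKM in TG placebo, with 10 of 10 higher and 1 past the threshold. Endothelial markers summed to 52.27 to 72.21 FPKM under NM-101, against 64.98 to 98.02 FPKM in TG placebo, with 10 of 10 lower and 0 past the threshold. The part of any of these marker lists in the Hmox1 and Ftl1 differences was not tested. Hmox2, the constitutive heme oxygenase, was likewise higher in each NM-101 library (5.80, 5.81 and 5.82) than in any TG placebo library (5.64, 5.59 and 5.47), at a limma adjusted p of 0.257.

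Trf, the iron carrier that oligodendrocytes and choroid plexus make in the brain, varied more within groups than any other member. It stood at 6.63, 6.02 and 6.34 in NM-101 libraries, against 7.02, 5.74 and 5.79 in TG placebo libraries. TG placebo replicate 1 held the highest value and replicates 2 and 3 the lowest of the 6. The difference of 0.15 ± 0.38 (SE) had a 95% interval of -0.78 to 1.08 and a limma adjusted p of 0.878. Without TG placebo replicate 1 it was 0.57, with a limma adjusted p of 0.0375 (range over 14 alternatives 0.0375 to 0.999). It was -0.07, -0.05 and -0.002 without TG placebo replicate 2, TG placebo replicate 3 and NM-101 replicate 1. GENCODE holds a predicted coding locus that overlaps Trf on the same strand, so reads of the pair may be mixed.

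Among 12119 named genes compared over the 6 TG samples, the 2 whose pattern was most like that of Trf were both myelin genes. They were Mog, a myelin surface protein (Pearson r = 0.997), and Mbp, the myelin basic protein (r = 0.995). Mog stood at 5.25, 4.62 and 4.97 under NM-101, against 5.71, 4.27 and 4.24 in TG placebo, in the same order of samples as Trf but for TG placebo replicates 2 and 3. Over the TG libraries Ttr, a choroid plexus marker, did not follow that order throughout. It was highest, at 12.14, in TG placebo replicate 1, as Trf was, but stood at 9.998 in NM-101 replicate 2, the NM-101 library with the lowest Trf, against 5.17 in NM-101 replicate 1, the one with the highest. In WT libraries rebuilt Trf was 6.76, 6.08 and 6.74 and Mog 5.51, 4.84 and 5.52, lowest for both in replicate 2. Rebuilt Ttr there was 11.56, 1.74 and 4.15, also lowest in replicate 2 and in the same order of replicates as Trf. Of the 12 myelin markers 10 had a positive NM-101 difference, with a median of 0.15 and 0 past the limma threshold. The part of myelin or choroid plexus RNA in the Trf values was not tested.

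**Figure D3:**
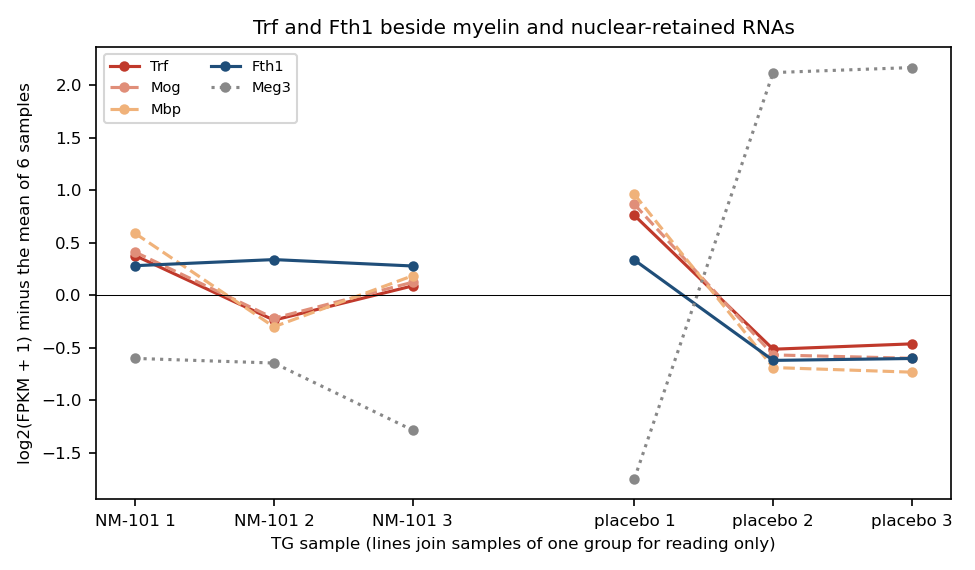
Trf and Fth1 in the 6 TG samples, beside the myelin genes Mog and Mbp and the nuclear-retained RNA Meg3, each as log2(FPKM + 1) minus its mean over the 6 samples; lines join samples of a group for reading only. Trf runs with Mog and Mbp in both groups, and Meg3 is highest in TG placebo replicates 2 and 3, where Trf and Fth1 are lowest.

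Tfrc, the receptor that takes up iron-loaded transferrin, stood at 4.34, 4.64 and 4.79 in NM-101 libraries, against 4.45, 4.50 and 4.48 in TG placebo libraries. The placebo values were close together and lay inside the NM-101 range. The difference was 0.11 ± 0.12 (SE), with a 95% interval of -0.17 to 0.39 and a limma adjusted p of 0.693. Slc40a1, which encodes the iron exporter ferroportin, stood at 1.63, 1.62 and 2.04 under NM-101, against 1.41, 1.59 and 1.78 in TG placebo. The ranges overlapped, and the difference of 0.17 ± 0.18 (SE) had a limma adjusted p of 0.667. Without NM-101 replicate 3 the differences were 0.013 for Tfrc and 0.032 for Slc40a1. Tfrc was at 0.24 without NM-101 replicate 1, and Slc40a1 was at 0.08 without TG placebo replicate 1 and 0.27 without TG placebo replicate 3.

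Slc11a2, the divalent metal transporter that moves iron out of the endosome, had a negative difference. It stood at 3.07, 3.12 and 3.17 in NM-101 libraries, against 3.10, 3.56 and 3.47 in TG placebo libraries. TG placebo replicate 1 lay in the NM-101 range and the other two lay above it, the reverse of Fth1. The difference was -0.26 ± 0.14 (SE), with a 95% interval of -0.57 to 0.06 and a limma adjusted p of 0.412, and without TG placebo replicate 1 it was -0.39, with an adjusted p of 0.0331 (range over 14 alternatives 0.0331 to 0.982). A pair of transcripts made up the sum, and the shorter, NM_008732, gave 21.3% ± 7.3 of it under NM-101, 23.2% ± 1.7 in TG placebo and 18.7% ± 2.2 in WT (SD, n = 3 each). The NM-101 shares overlapped those of both placebo groups, and the TG placebo shares (24.1, 24.2 and 21.3%) were all above the WT shares (16.2, 20.4 and 19.5%), a difference that was not tested. The WT shares were rebuilt from counts and GENCODE lengths, and the TG shares came from the deposited values. A difference between TG and WT shares therefore cannot be told apart from a difference in measure. A predicted coding gene overlaps Slc11a2 on the opposite strand, and no source used here states whether counting used strand. Steap3, the endosomal ferrireductase that acts ahead of this transporter, stood at 1.57, 1.25 and 1.25 under NM-101, against 1.27, 1.81 and 1.60 in TG placebo, with overlapping ranges and a difference of -0.20 ± 0.19 (SE, limma adjusted p = 0.63). The Steap3 difference was -0.35 without TG placebo replicate 1, -0.31 without NM-101 replicate 1 and -0.076 without TG placebo replicate 2.

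The sensors varied little. Ireb2, which encodes the iron regulatory protein that is degraded when iron is plentiful, stood at 3.82, 3.70 and 3.90 in NM-101 libraries, against 3.68, 3.73 and 3.75 in TG placebo libraries. Aco1, which encodes the protein that is an aconitase when it holds an iron-sulfur cluster and an RNA-binding sensor when it does not, stood at 3.09, 3.03 and 2.89 in NM-101 libraries, against 2.73, 2.94 and 2.88 in TG placebo. Ranges overlapped for both. The differences were 0.09 ± 0.10 for Ireb2 and 0.15 ± 0.12 for Aco1 (SE), with limma adjusted p-values of 0.715 and 0.581. Their 95% intervals reached from -0.15 to 0.32 and from -0.13 to 0.43. The Ireb2 difference was 0.039 without NM-101 replicate 3 and 0.14 without NM-101 replicate 2, and that of Aco1 was 0.091 without TG placebo replicate 1. Ireb2 exceeded Aco1 in every sample, by 0.59 to 1.01 log2 units over the 9 libraries.

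**Figure D4:**
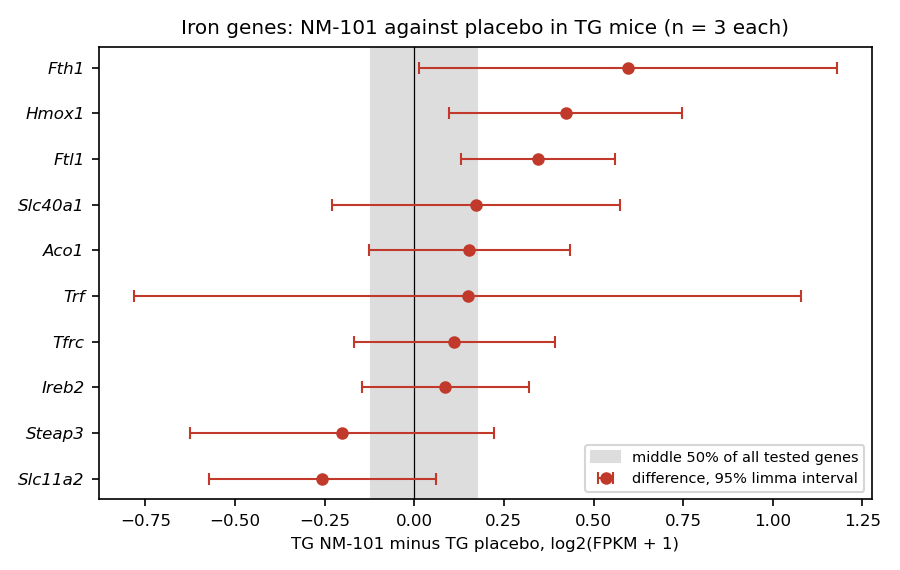
Difference between TG NM-101 and TG placebo for each iron gene (points) with its 95% limma interval (bars), n = 3 per group; the grey band holds the middle 50% of the 12699 genes tested, from -0.12 to 0.18. The unadjusted intervals of Fth1, Hmox1 and Ftl1 lie above 0, and 0 of the 10 passed after adjustment.

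Without TG placebo replicate 1, 5 of the 10 members passed the limma test at an adjusted p of 0.05: Fth1, Ftl1, Trf and Hmox1 were higher and Slc11a2 lower. That fit called 17.9% of all genes, with 9.69% higher and 8.17% lower. It set NM-101 against the pair of placebo libraries that were high in summed nuclear-retained RNA and low in summed myelin RNA. Not every marker followed its sum: the myelin marker Opalin stood at 4.439 and 4.056 in that pair, against 3.805, 3.862 and 4.683 under NM-101. With any other single sample left out, 0 members passed.

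TG placebo set against WT placebo addresses the genotype. Since counts and log2 values were normalized separately, there was no test, and differences are between group means of rebuilt values. Of the 10 members 8 had a negative difference from WT, with a median of -0.13 against 0.05 over 12410 genes. Groups overlapped for 9 of the 10. The exception was Ireb2, at 3.68, 3.73 and 3.75 in TG placebo and 3.88, 3.83 and 3.88 in WT, all TG values being lower, as in 15.9% of genes, while 0 members had all TG values higher, as in 20.8%. The difference was 0.29 for Slc11a2 and -0.34 for Trf. With 1 library left out the Trf value lay between -0.76 (without TG placebo replicate 1) and -0.12 (without TG placebo replicate 2). The ferritin genes had differences of -0.07 each, and their sign depended on single libraries. Fth1 lay between -0.38 (without TG placebo replicate 1) and 0.096 (without TG placebo replicate 2), and Ftl1 between -0.22 (without WT replicate 1) and 0.015 (without WT replicate 3). Marker sums moved as well. Astrocyte markers summed to 1217 to 1388 FPKM in TG placebo and 2517 to 2737 on the rebuilt scale in WT. In TG placebo replicates 2 and 3, nuclear-retained RNAs summed to 1221 and 1463 FPKM, against 201.8 to 246.4 in WT, and myelin markers to 1644 and 1574 FPKM, against 2689 to 4498 in WT. TG placebo replicate 1, with 4942 FPKM of myelin markers, lay above WT in these. Choroid plexus markers were high in 1 library of each group, at 4616 FPKM in TG placebo replicate 1 and 3072 in WT replicate 1. They summed to 5.22 to 21.73 in the other libraries of both groups. The part of these RNAs in the differences from WT was not tested.

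For TG NM-101 against WT placebo, 3 members lay above every WT library: Fth1, Ftl1 and Hmox1. That held for 23.5% of genes, and 0 members lay below every WT library, against 13.1% of genes. Fth1 stood at 12.56 to 12.62 under NM-101 and at 11.94, 11.89 and 12.32 in WT, a difference of 0.53. Ftl1 stood at 9.13 to 9.18 under NM-101 and at 8.58, 9.00 and 9.04 in WT, a difference of 0.28, or 0.13 without WT replicate 1. Hmox1 stood at 2.08 to 2.34 under NM-101 and at 1.91, 2.08 and 1.83 in WT, a difference of 0.30, with the lowest NM-101 value and the highest WT value nearly equal. The other 7 members overlapped, with differences between -0.19 for Trf and 0.03 for Slc11a2. The Trf value lay between -0.415 (without WT replicate 2) and -0.037 (without NM-101 replicate 2). Microglial markers summed to 377.5 to 385.2 FPKM under NM-101, against 283.6 to 307.3 in WT, and nuclear-retained RNAs to 423.3 to 516.9 FPKM, against 201.8 to 246.4 in WT. Astrocyte markers summed to 1722 to 1833 FPKM under NM-101, against 2517 to 2737 in WT. Choroid plexus markers summed to 1045 FPKM in NM-101 replicate 2 and 3072 in WT replicate 1, against 5.22 to 68.93 in the other libraries of both groups. The part of these RNAs in the differences was not tested. Both comparisons with WT share the WT libraries, and the NM-101 libraries also enter the test above.

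Around these members, other genes of iron handling were examined in 4 lists, of which 19 genes were under the level tested and 4 of those were listed at 0 in every TG library. These were Hamp and Hamp2, the hepcidin genes, Timd2, a ferritin receptor, and Ftmt, the mitochondrial ferritin. In each of the lists 0 genes passed the limma test, and the counts below stand beside 14.8% of all tested genes with an unadjusted p under 0.05 and 55.5% with a positive difference. In the list of uptake, ferroxidases and systemic control, 4 of 10 tested genes were higher and 6 lower under NM-101, with a median difference of -0.03 and 2 at an unadjusted p under 0.05. Heph, hephaestin, a ferroxidase that works with ferroportin in iron export, stood apart in it at 2.16, 2.15 and 2.33 under NM-101, against 1.70, 1.57 and 1.57 in TG placebo. All NM-101 values of Heph were higher, as in 13.6% of all genes, the difference was 0.60 ± 0.14 (SE), and the limma adjusted p was 0.113. In WT libraries rebuilt Heph ranged from 1.21 to 2.14, which overlapped both TG groups. Tfr2, the second transferrin receptor, and Slc39a14, a transporter of unbound iron, had lower values in each NM-101 library than in any TG placebo one, as in 5.98% of all genes, with log2 differences of -0.40 and -0.28 (limma adjusted p = 0.327 and 0.34).

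Of 11 tested genes of iron sensing, chaperones and ferritin turnover, 9 were higher and 2 lower, with a median difference of 0.05 and 2 at an unadjusted p under 0.05. Pcbp3, a relative of the iron chaperone genes, differed by -0.36 and Skp1, a part of the ubiquitin ligase that degrades the Ireb2 protein, by 0.30 (limma adjusted p = 0.169 and 0.234). Bach1, a heme-binding repressor of Hmox1, was at 1.84, 1.74 and 2.01 under NM-101 and at 1.65, 1.68 and 1.77 in TG placebo, which overlap. Ncoa4, the receptor that delivers ferritin to the lysosome, differed by 0.03, and Fbxl5, the iron-sensing part of that ligase, by 0.02. The mitochondrial iron and iron-sulfur list had 15 of 27 genes higher and 12 lower, a median of 0.06 and 4 at an unadjusted p under 0.05. Bola3 and Isca1, both factors of cluster assembly, differed by 0.34 and 0.24 (limma adjusted p = 0.247 and 0.302). Of 18 tested heme genes, 7 were higher and 11 lower, the median was -0.03 and 2 had an unadjusted p under 0.05. Alas1, which makes the first step of heme synthesis, differed by -0.22 and Ppox, a late step, by -0.41 (limma adjusted p = 0.333 and 0.339).

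Each of the other members also had genes of closely like pattern. Over the 6 TG samples Fth1 ran with Syap1 and Ppp2cb (both r = 0.998), Ftl1 with Eif4e (0.995) and Ccdc43 (0.991), and Hmox1 with Rpf2 (0.995) and Nudt9 (0.994). Slc11a2 ran with Pan2 (0.996), Steap3 with Ift140 and Taf4 (both 0.995), and Ireb2 with Eea1 (0.998) and Xpo4 (0.994). For Tfrc the closest were Slc25a18 (0.991) and Klhl23 (0.982), for Slc40a1 Ggta1 (0.988) and Fhod3 (0.982), and for Aco1 Ppp4c and Pnpla7 (both 0.985). These correlations describe 6 libraries that share 1 table and its scaling, and nothing more. Among the members themselves Fth1 and Slc11a2 ran opposite to each other, at r = -0.98, and Ftl1 ran with Hmox1 (0.90) and Fth1 (0.88), over the same 6 libraries.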

How the data were processed

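RNA was purified with a kit intended for formalin-fixed samples and sequenced from QuantSeq libraries, per the labels' protocols. The submitters' processing notes name Bowtie2 and mm10, and no source used here gives the counting program. The table the authors deposited is 1 file in which WT columns are raw counts per RefSeq transcript and TG columns are log2 values. The TG values are read as log2(FPKM + 1) from the values: over 17665 transcripts they rose with WT CPM (slope 0.927) and fell with length (slope -0.839). TG depth cannot be read from the table as totals. Names were matched through RefSeq genes, GRCm38.p6 (32390 of 33299 transcripts matched). Values were summed per symbol on the linear scale and returned to log2 with a pseudocount of 1, and genes with a mean of at least 1 over the 6 TG samples were tested (12699) with limma 3.58.1 in R 4.3.3, with variance trend and robust shrinkage. WT counts were divided by library total and GENCODE M21 transcript length. Fold changes on this scale understate low genes. The fit was run on simulated data with independent scatter for each gene. No simulated library stood apart, so that run does not cover the effect of TG placebo replicate 1. The members, gene lists and naming rule were chosen with earlier results of these data known: the 10 members, the 3 genes with the smallest p of each list, and the 2 genes most correlated with each member (predicted loci passed over) are named, except 2 genes that are not reported here, and Ncoa4, Fbxl5, the genes at 0, Ttr and Meg3 were chosen after their values were seen. Alternatives changed the pseudocount, filter, scaling, shrinkage, transcript summing, block and each sample in turn.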

Additional observations from a re-analysis of the deposited data

How the results depend on the processing

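The number of genes called between TG NM-101 and TG placebo, 17, was 17 with a pseudocount of 0.1, but 4 with no filter on low values, 0 with only genes above 0 in all 6 TG samples (limma, 0 members), 4 with median-ratio scaling, 4 without trend or robust shrinkage and 7 per RefSeq transcript. Leaving out 1 sample gave 2 to 2269 genes and 0 to 5 members, the highest of both without TG placebo replicate 1. With TG placebo replicate 1 alone as the placebo group, a choice made after seeing the data that assumes the lone sample varies like the others, 109 genes and 0 members passed, and 4 differences reversed: Fth1 to -0.035, Trf to -0.684, Slc11a2 to 0.018 and Steap3 to 0.092. Trf also reversed without TG placebo replicate 2 (-0.072) or 3 (-0.047) or NM-101 replicate 1 (-0.002). Over all members and alternatives in this comparison, 128 values kept direction and side of the threshold, 7 reversed and 5 newly passed, all 5 without TG placebo replicate 1 (Trf there 0.565); the cause was not tested. The replicate numbers were not seen to pair samples: deviations of same-numbered samples correlated at 0.045, -0.027 and -0.018, and with the replicate block 3 genes and 0 members passed. The members' median of NM-101 minus TG placebo lay between 0.091 and 0.195 when 1 sample was left out. For NM-101 minus WT the members' median, -0.06, was between -0.05 and 0.067 when 1 sample was left out. Median-ratio scaling moved the median of all genes by less than 0.1 in each comparison. Depth limits Hmox1, Steap3 and Slc40a1 most, and the number of samples limits all.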
